A study of Mus musculus with 9 samples.

Results

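The genes described here are 44 mouse genes that copy DNA or make its building blocks. They were chosen by name from textbook roles: the MCM helicase, the factors that license and fire replication origins, the DNA polymerases and primase, the sliding clamp and its loader, the single-strand binding complex, the enzymes that join lagging-strand fragments, the enzymes of deoxynucleotide supply, and factors that rebuild chromatin and DNA methylation behind the fork. The list was put together with earlier results of these data known. All 44 genes had at least 1 probe on the array and all 44 were among the 14253 genes tested. A probe entered the tests if it stood well above background in the sample channel on at least 3 of the 9 arrays, and 18 of the 44 genes met this through the 3 arrays of the tumour-derived fraction alone.

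The samples came from 3 athymic Balb/c females, mice 832, 833 and 834, which carried subcutaneous tumours of Hepa1-6, a mouse hepatoma cell line. The "day 0 blood" group is whole blood taken from each mouse before it received Hepa1-6 cells, the "day 10 blood" group is whole blood of the same mice 10 days after inoculation, and the "day 10 TIC" group is RNA from ground tumour, from a fraction enriched for inflammatory cells that had entered the tumour (TIC). Each group held 3 samples, 1 per mouse. No tumour-free mouse was followed for 10 days among the samples used here, and no untreated tumour cells were measured beside the fraction. Athymic mice lack a thymus and are short of mature T cells. Blood and tumour RNA were extracted with different kits, so kit and tissue cannot be told apart. The source field of the TIC samples reads blood, whereas their tissue field and titles name the tumour-infiltrating fraction, and the latter was used.

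Each sample was labelled with Cy5 and hybridised on an Agilent 2-colour array together with a Cy3-labelled reference, RNA from blood of 1 untreated C57Bl/6 female, the same kind of reference on every array and without a dye swap. A level below is the log2 ratio of sample to reference after loess normalization within the array, which sets the typical ratio of an array near 0 at every brightness. An intensity is the background-corrected Cy5 brightness, which was not scaled between arrays. A difference is a difference between group means of log2 ratios, from limma with all 9 arrays in the fit, given with its standard error. Genes were called higher or lower at a Benjamini-Hochberg adjusted p below 0.05 over all 14253 genes.

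DNA replication starts when the origin recognition complex, CDC6 and CDT1 load rings of the MCM helicase onto DNA in G1. In S phase the kinase CDC7 with its partner DBF4, together with CDC45 and the GINS complex, turns these rings into moving helicases, and the polymerases, the PCNA clamp and RPA follow. Most of these genes are transcribed in dividing cells under E2F factors, and circulating blood cells are mostly non-dividing, and their transcripts are widely read as markers of proliferation.

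The arrays differed in brightness by group. The median Cy5 intensity over the tested genes was 14.5 to 30 before inoculation, 8.89 to 12.1 in day 10 blood and 129 to 276 in the TIC fraction, while 82.3% to 86.4% of tested genes were above background in the Cy3 reference on the blood arrays and 78.7% to 86.7% on the TIC arrays. The arrays came from 3 slides: slide 1 held TIC 832, slide 2 held day 0 blood of mice 832 and 833 and TIC of mice 833 and 834, and slide 3 held day 0 blood of mouse 834 and all 3 day 10 bloods. The TIC array of mouse 833 stood apart, with a correlation across genes of 0.885 and 0.896 with the other TIC arrays, which correlated at 0.989 with each other. In the TIC fraction 11 of 13 hepatocyte and hepatoma markers were called higher than in day 10 blood and 2 lower, down to -3.5; among the higher was Afp, the fetal serum protein of hepatoma cells, with Cy5 intensities of 48900, 35200 and 20600 against 9.77 to 12. Of the 6 fibroblast markers 2 were called higher and 4 lower by ratio. All 6 were above background on each TIC array, against 1 to 2 in day 10 blood. Their summed Cy5 intensity was 18400 to 143000 against 37.9 to 80.1. Of the macrophage markers 4 of 8 were called higher in the same comparison. All 6 T cell markers, all 7 B cell markers, 5 of 8 neutrophil markers and all 5 platelet markers were called lower by ratio. Summed Cy5 intensities in the TIC fraction and day 10 blood were 192 to 596 and 82.8 to 124 for T cell markers. For neutrophil markers they were 21500 to 212000 and 11200 to 17700. For B cell markers they were 172 to 432 and 184 to 863, and for platelet markers 101 to 473 and 1620 to 3710. The share of the replication transcripts that came from tumour cells, from infiltrating cells or from others in the fraction was not tested, and in these bulk samples fewer cells of a type and less RNA per cell cannot be told apart.

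Detection in Cy5 differed between the groups, but 18 of the 44 genes were kept through the TIC arrays alone, which fixes their detection in the TIC fraction and its lack in blood. In the Cy5 channel 26, 24 and 19 of the 44 genes were above background in day 0 blood of mice 832, 833 and 834, against 11, 16 and 8 in day 10 blood and 44 on each TIC array. As shares these are 43.2% to 59.1%, 18.2% to 36.4% and 100%, where all tested genes gave 54.9% to 74.6%, 32.6% to 47.6% and 92.5% to 95.9%. On every blood array the genes of replication were detected at a lower share than the tested genes as a whole, to which the same filter applied. Only 8 genes stood above background on all 9 arrays: Cdt1, Lig1, Mcm4, Mcm6, Pcna, Pold1, Rfc2 and Rfc5. A further 10 were above background on at least 1 day 0 blood array but on no day 10 blood array: Gins2, Mcm2, Mcm5, Orc2, Orc6, Prim1, Rpa3, Rrm1, Tyms and Uhrf1.

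**Figure D1:**
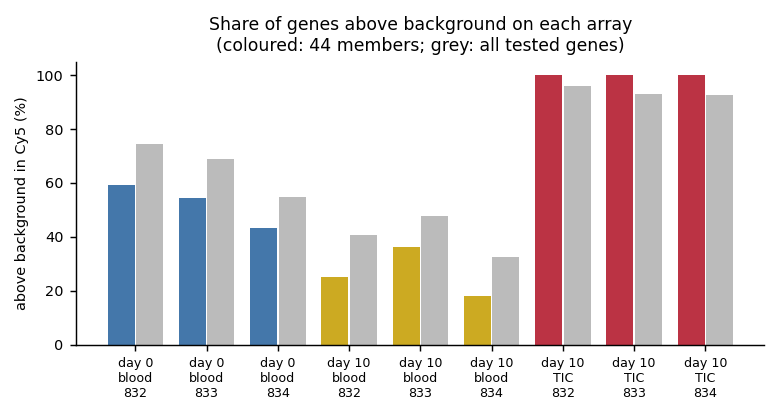
Share of genes above background in Cy5 (y axis, %) on each array (x axis, group and mouse number). Coloured bars are the 44 replication and nucleotide synthesis genes and grey bars all 14253 tested genes; the 44 genes lie below the grey bars on the 6 blood arrays and at 100% on the 3 TIC arrays.

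Against day 10 blood, 29 of the 44 genes were called higher in the TIC fraction, 2 were called lower and 13 were neither, where 34.4% of all tested genes were called higher and 33.1% lower (67.6% in either direction). Those called lower were Lig1 and Rfc3, and Rfc3 turned to the opposite sign with Cy5 alone and with median centring. The median of all tested genes was then 0.21 with Cy5 alone and 1.39 with median centring. The median difference of the 44 genes was 0.69, against 0.07 for all tested genes. Against day 0 blood the same 29 genes were called higher and 3 lower, with 31.7% of all tested genes called higher and 33.6% lower (65.4% in either direction), and a median of 0.70 against 0.01. The comparisons share the TIC samples, so the second is no independent repeat of the first. Each of the 29 genes was higher in the TIC fraction of 3 of 3 mice, in both comparisons, with no overlap between groups, and 17 of them differed by over 1 on the log2 scale in each comparison. In all, the 3 values of each group did not overlap for 31 genes that were higher and 2 that were lower than in day 10 blood, against 36.8% and 34.9% of all tested genes, and for 33 and 3 against day 0 blood, where the shares were 32.7% and 34.9%. Of the 26 genes above background on at least 1 blood array 18 were called higher against day 10 blood. Of the 18 detected through the TIC arrays alone 11 were, and these 18 were kept because of the TIC arrays. For some called genes the Cy3 reference was dim too. It was above background on no array for Cdc6, Cdc45 and Chaf1a, and on 1 TIC array and no blood array for Pole2. For Gins1 and Pola2 it was above background on no TIC array. The ratios of these genes rest on a reference near background.

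Slides and groups overlapped only in part, and these counts depend on how the slide is treated. With the slide as a fixed block 14 genes were called higher and 1 lower against day 10 blood, and 24 and 2 against day 0 blood, at medians of 0.88 and 0.76, where 1498 and 3079 of the 14253 tested genes were called higher. The calls lost against day 10 blood were those of Cdc45, Cdc6, Chaf1b, Dbf4, Gins1, Gins2, Pola2, Pold2, Pole, Pole2, Rfc3, Rfc4, Rpa3, Tk1, Tyms and Uhrf1, and against day 0 blood those of Cdc45, Dbf4, Gins2, Pold1, Pole2 and Rfc4. Day 10 blood and the TIC fraction share no slide, so that comparison then rests on the day 0 arrays that link them. Within slide 2, which holds 2 arrays of each group, 11 genes were called higher and 1 lower in the TIC fraction against day 0 blood, at a median of 0.76, where 7.19% of all tested genes were called higher.

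**Figure D2:**
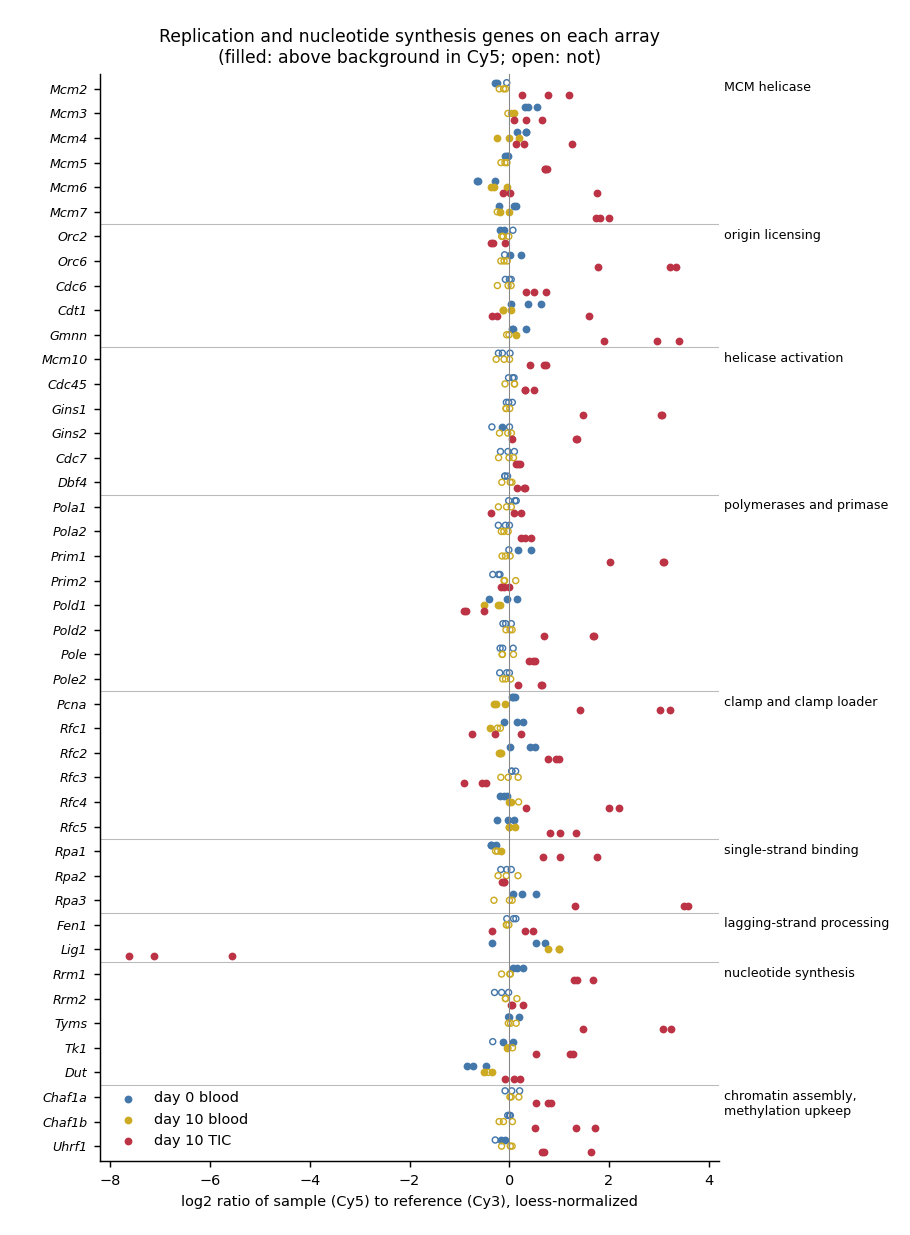
Log2 ratio of sample to reference (x axis) for each of the 44 genes (y axis, by role) on each of the 9 arrays; colours give the groups, filled points are above background in Cy5 and open points are not. Blood values lie close to 0 for nearly all genes, TIC values spread to 3.58 for Rpa3, and Lig1 alone lies far to the left, at -5.55 to -7.62 in the TIC fraction.

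The 6 MCM subunits, which form the ring helicase that unwinds DNA, did not move as 1 block. Mcm7 had the clearest difference. Its log2 ratios were 0.10, 0.14 and -0.21 in day 0 blood of mice 832, 833 and 834, -0.19, 0.00 and -0.24 in day 10 blood and 1.73, 2.0 and 1.82 in the TIC fraction, so that the TIC values lay together and far above all blood values. Mcm7 was higher by 1.99 ± 0.13 against day 10 blood and by 1.84 ± 0.13 against day 0 blood (adjusted p = 4.73e-06 and 1.07e-05, limma). Mcm5 was the most even gene between mice, at 0.75, 0.72 and 0.71 in the TIC fraction against -0.03 to -0.09 in day 0 and -0.05 to -0.17 in day 10 blood. Its difference from day 0 blood was 0.79 ± 0.09 (adjusted p = 8.46e-05, limma), and on the day 10 blood arrays it was not well above background.

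A group in which no array measured a gene well above background has only a bound. On Cy5 values after loess and quantile normalization of the average brightness, the bound is the mean of the bright group over the higher of the dim gene's own signal and the dimmest signal still above background on each array; without dye swaps it is open to dye bias. For 12 of the 20 such genes called higher against day 10 blood, and 6 of 11 against day 0 blood, this Cy5 bound exceeded the fold of the ratios. The lowest of the Cy5 bound, the fold of the ratios and the fold by Cy5 alone is therefore given as "at least N-fold". It comes with the adjusted p of the ratio difference. This is the lowest of 3 point estimates for the brightest probe, not a limit that holds for each mouse, setting or probe. For Orc6 the ratio difference from day 10 blood was 2.89, but 1.95 in mouse 833 and 2.39 with the slide as a fixed block. Mcm5 was at least 1.77-fold and Mcm2 at least 1.83-fold higher in the TIC fraction than in day 10 blood (adjusted p = 4.79e-05 and 0.006, limma). Mcm2 had ratios of 0.25, 1.19 and 0.77 in the TIC fraction and -0.05 to -0.29 in day 0 blood, which it exceeded by 0.93 ± 0.21 (adjusted p = 0.00447, limma).

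Mcm3, Mcm4 and Mcm6 were not called in either comparison with their brightest probes. Mcm6 had Cy5 intensities of 2890, 2800 and 1030 in the TIC fraction against 24.2 to 82.1 in all bloods, while its ratios were 0.01, 1.75 and -0.12 in the TIC fraction against -0.29 to -0.64 in day 0 and -0.04 to -0.38 in day 10 blood. Only the TIC sample of mouse 833 lay clearly above the bloods. Mcm4 showed the same order, at 0.29, 1.26 and 0.13 in the TIC fraction, -0.24 to 0.19 in day 10 and 0.15 to 0.34 in day 0 blood. The differences from day 10 blood were 0.79 ± 0.44 for Mcm6 and 0.58 ± 0.27 for Mcm4 (adjusted p = 0.138 and 0.0875, limma). Mcm3 had a brighter probe with TIC ratios of 0.34, 0.66 and 0.09, at or above day 10 blood (-0.03 to 0.09), and 1 each above, within and below the range of day 0 blood (0.31 to 0.55). A dimmer Mcm3 probe, not above background on any blood array, went the same way against day 10 blood and passed the threshold (adjusted p = 0.00203, limma over all kept probes). Against day 0 blood the probes differed. The dimmer one was higher by 0.49 (adjusted p = 0.0037, limma over all kept probes), where the brighter one gave -0.05.

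Of the 6 helicase genes, Mcm3, Mcm5, Mcm6 and Mcm7 have a promoter window with words that E2F factors are known to recognise, the window of Mcm2 has none, and Mcm4 was not matched. Windows of 300 bases, from 250 before to 50 after the start of transcription, were taken from RefSeq on build GRCm38.p6, and 37 of the 44 genes matched, with 45 windows. The words TTTCCCGC, TTTCGCGC, TTTGCCGC and TTTGGCGC were searched on both strands; neighbouring matches on opposite strands can overlap. A match stood in 12 of the 45 windows (26.7%), those of 12 genes, against 2.26% of all 32851 windows. The windows of Mcm5, Mcm6 and Mcm7 that hold matches are shown because the 3 genes share the word TTTCGCGC while 1 of them was not called. The sequence runs 5′ to 3′ on the gene's own strand and capitals mark the matches.
Mcm5, chr8:75109259-75109558, + strand: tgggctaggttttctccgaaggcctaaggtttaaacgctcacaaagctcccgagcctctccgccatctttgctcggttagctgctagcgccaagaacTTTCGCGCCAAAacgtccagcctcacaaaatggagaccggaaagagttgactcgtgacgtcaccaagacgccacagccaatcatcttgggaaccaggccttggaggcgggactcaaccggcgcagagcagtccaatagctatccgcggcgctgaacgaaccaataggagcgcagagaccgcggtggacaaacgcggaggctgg
Mcm6, chr1:128359656-128359955, - strand: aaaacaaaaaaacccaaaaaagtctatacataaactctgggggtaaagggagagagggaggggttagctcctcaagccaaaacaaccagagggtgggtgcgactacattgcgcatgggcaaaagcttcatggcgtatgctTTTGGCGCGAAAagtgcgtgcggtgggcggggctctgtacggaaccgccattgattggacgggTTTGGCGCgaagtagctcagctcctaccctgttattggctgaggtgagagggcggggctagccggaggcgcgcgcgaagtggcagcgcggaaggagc
Mcm7, chr5:138171834-138172133, - strand: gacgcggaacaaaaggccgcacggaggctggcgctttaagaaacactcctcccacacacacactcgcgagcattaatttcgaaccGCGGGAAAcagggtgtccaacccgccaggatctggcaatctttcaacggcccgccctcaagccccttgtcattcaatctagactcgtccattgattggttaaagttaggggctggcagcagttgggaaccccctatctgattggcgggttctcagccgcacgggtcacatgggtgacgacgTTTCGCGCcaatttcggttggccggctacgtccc
Counted in bases from the start of transcription, negative before it, the matches begin at -153 and -149 in Mcm5, at -110, -106 and -47 in Mcm6, and at -165 and 16 in Mcm7. Of the 12 genes with a match 5 were called higher in the TIC fraction than in day 10 blood (Cdc6, Mcm5, Mcm7, Pole2 and Uhrf1), 2 were called lower and 5 were not called. Of the 25 genes whose windows hold none of these words 19 were called higher, Pcna, Tyms and Rrm1 among them. Of all tested genes 34.4% were called higher in this comparison and 33.1% lower. Some called genes were kept through the TIC arrays alone, such as Cdc6 and Pole2 with a match and Cdc45 and Pold2 without. Whether calls differ with the words was not tested. The CCAAT pentamer, bound by NF-Y, stood in 25 of the 45 windows (55.6%), against 37.4% of all windows.

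Among the genes that license origins, Orc6 and Gmnn rose most. Orc6, the smallest subunit of the origin recognition complex, had log2 ratios of 0.01, 0.23 and -0.09 in day 0 blood, -0.04, -0.17 and -0.10 in day 10 blood and 3.35, 1.78 and 3.23 in the TIC fraction. All TIC values exceeded all blood values, and the mouse 833 value lay well below its 2 companions. Orc6 was higher by 2.74 ± 0.36 against day 0 blood (adjusted p = 0.000247, limma) and at least 7.42-fold higher than in day 10 blood (adjusted p = 0.000153). Gmnn encodes geminin, the inhibitor of CDT1 that blocks a second round of licensing, and stood at 3.40, 1.90 and 2.96 against 0.06 to 0.34 in day 0 and -0.05 to 0.14 in day 10 blood. Its difference was 2.73 ± 0.32 against day 10 blood (adjusted p = 0.000108, limma).

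Cdt1 itself, the loader that geminin binds, was above background on all arrays and was not called. Its TIC ratios were -0.24, 1.59 and -0.35, against -0.13 to 0.03 in day 10 and 0.03 to 0.63 in day 0 blood, so that only mouse 833 exceeded the bloods. The difference from day 10 blood was 0.41 ± 0.46 (adjusted p = 0.449, limma) and turned to -0.22 without the TIC array of mouse 833 (adjusted p = 0.232). Against day 0 blood Cdt1 was called lower without that array, by -0.64 (adjusted p = 0.00542, limma). Cdc6, the other loader, was dim, with Cy5 intensities of 54.2 to 152 in the TIC fraction and 0.723 to 6.98 in blood, and was at least 1.38-fold higher than in day 10 blood and at least 1.42-fold higher than in day 0 blood (adjusted p = 0.00355 and 0.00672, limma). A second, dimmer Cdc6 probe gave smaller ratio differences, 0.37 from day 10 and 0.41 from day 0 blood, against 0.59 and 0.53 for the brighter one. Orc2, a core subunit of the origin recognition complex, had TIC ratios of -0.09 to -0.37 that overlapped those of both bloods.

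Of the 6 genes that activate the helicase, 5 were called higher in both comparisons. Gins1 and Gins2 encode subunits of GINS, which joins CDC45 on the MCM ring. Gins1 was not above background on any blood array, had TIC ratios of 3.04, 1.48 and 3.06 with Cy5 intensities of 3760, 356 and 1620, and was at least 4.0-fold higher than in day 10 blood and at least 3.73-fold higher than in day 0 blood (adjusted p = 0.000351 and 0.000434, limma). For this probe the Cy3 reference was above background on none of the 3 TIC arrays. A second, dimmer Gins1 probe was also higher than in day 10 blood, but by only 0.77 (adjusted p = 0.0148, limma over all kept probes). Against day 0 blood it was higher by 0.69. The brighter probe gave 2.57 and 2.53, so the folds above do not hold for both probes. Gins2 stood at 1.35 and 1.33 in mice 832 and 834 but at 0.05 in mouse 833, close to its day 10 blood values of -0.20 to 0.04. It was at least 1.96-fold higher than in day 10 blood (adjusted p = 0.0243, limma), a call that was lost when TIC 832, TIC 834, day 10 blood 832 or day 10 blood 834 was left out.

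Mcm10, a factor that helps to fire the loaded helicase, had even TIC ratios of 0.74, 0.70 and 0.42 and was at least 1.67-fold higher than in day 10 blood and at least 1.66-fold higher than in day 0 blood (adjusted p = 0.000972 and 0.00113, limma). Cdc45 and Dbf4 changed least among the called genes. Cdc45 had intensities of only 23.7 to 36.5 in the TIC fraction and was called higher than in day 10 blood by ratio (adjusted p = 0.0201, limma), but Cy5 alone gave -0.01, so no bound is given. Dbf4 was at least 1.22-fold higher than in day 10 blood (adjusted p = 0.0324, limma), a call that was lost with the mouse or the slide as a block, with Cy5 alone, with Agilent's processed signals, and without any 1 of TIC 832, TIC 834, day 10 blood 832 and day 10 blood 833. The Cdc45 call was also lost with median centring, with normexp on all spots, with the slide as a fixed block, and without TIC 832 or day 10 blood 832. The kinase gene Cdc7, its partner, had TIC ratios of 0.13, 0.21 and 0.18 and was not called in either comparison (adjusted p = 0.125 and 0.146, limma).

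By ratio the polymerase and primase genes split within complexes. Primase makes the RNA primers from which each strand starts. Prim1, its catalytic subunit, had log2 ratios of 0.17, 0.43 and -0.01 in day 0 blood, -0.08, 0.02 and -0.14 in day 10 blood and 3.08, 2.01 and 3.09 in the TIC fraction. It was higher by 2.53 ± 0.28 against day 0 blood (adjusted p = 8.1e-05, limma) and at least 5.26-fold higher than in day 10 blood (adjusted p = 3.47e-05). Prim2, the regulatory subunit, had TIC ratios of -0.01 to -0.16 and was not called against either blood, with Cy5 intensities of 23.5 to 70.8 in the TIC fraction against 833 to 4860 for Prim1; intensities of different probes cannot be ranked as amounts of RNA.

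DNA polymerase alpha, which extends those primers, showed a like split by ratio but not in Cy5. Pola2, its accessory subunit, had TIC ratios of 0.24 to 0.43 and was at least 1.11-fold higher than in day 10 blood (adjusted p = 0.00611, limma). This call was lost with Cy5 alone, with median centring and with the slide as a fixed block. Pola1, the catalytic subunit, stood at 0.23, -0.36 and 0.09 and was not called. In Cy5 the order of the subunits was the other way. Cy5 alone gave 1.74-fold for Pola1 and 1.2-fold for Pola2 against day 10 blood. The Cy5 bounds were 1.53-fold and 1.11-fold. The reference signal of Pola1 was above background on the 3 TIC arrays and on none of the 6 blood arrays. The reference was described as the same on all arrays, and the reason was not tested.

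Of polymerase delta, which copies the lagging strand, Pold2 was called higher and Pold1 was not. Pold2 had TIC ratios of 1.70, 0.70 and 1.69 and was at least 2.57-fold higher than in day 10 blood and at least 2.67-fold higher than in day 0 blood (adjusted p = 0.00123 and 0.00109, limma). Pold1, the catalytic subunit, was above background on all 9 arrays, with ratios of -0.92, -0.50 and -0.86 in the TIC fraction, -0.23, -0.19 and -0.51 in day 10 blood and -0.05, -0.41 and 0.16 in day 0 blood. It fell by 0.66 ± 0.18 against day 0 blood (adjusted p = 0.011, limma), while its Cy5 intensity was 537 to 1220 in the TIC fraction and 60.3 to 131 in day 0 blood, and median centring without loess turned its difference to 2.11. Against day 10 blood Pold1 was just outside the threshold (adjusted p = 0.051, limma). Pole and Pole2, of the leading-strand polymerase epsilon, were at least 1.45-fold and at least 1.4-fold higher than in day 10 blood (adjusted p = 0.00309 and 0.00913, limma).

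Pcna, the sliding clamp that tethers the polymerases, was above background on all 9 arrays and among the largest differences. Its probe lies at chr2:131941125-131941262 (mm8). Its Cy5 intensities were 150, 121 and 55.9 in day 0 blood, 22.3, 40.2 and 16.8 in day 10 blood and 53100, 2110 and 17400 in the TIC fraction of mice 832, 833 and 834. On the ratio scale it stood at 0.07, 0.12 and 0.05, then at -0.32, -0.09 and -0.26, and in the TIC fraction at 3.21, 1.41 and 3.02. No TIC value approached the bloods, and mouse 833 was the lowest of the 3. Pcna was higher by 2.77 ± 0.40 against day 10 blood and by 2.47 ± 0.40 against day 0 blood (adjusted p = 0.000362 and 0.000804, limma), and by 6.75 and 5.80 with median centring in place of loess.

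Replication factor C, which opens the clamp and loads it on DNA, gave 3 genes called higher, 1 called lower and 1 not called. Rfc2 and Rfc5 were above background on all arrays. Rfc2 stood at 0.78, 0.93 and 1.0 in the TIC fraction and at -0.16 to -0.22 in day 10 blood, a difference of 1.09 ± 0.14 (adjusted p = 0.000181, limma). Rfc5 stood at 0.81, 1.34 and 1.01 against -0.01 to 0.10, a difference of 1.03 ± 0.15 (adjusted p = 0.000398, limma). Rfc4 reached 2.20 and 2.0 in mice 832 and 834 but 0.34 in mouse 833, which gave 1.44 ± 0.42 against day 10 blood (adjusted p = 0.014, limma), a call lost without the TIC array of mouse 834. Rfc1, the large subunit, ranged from -0.74 to 0.24 in the TIC fraction and overlapped day 10 blood.

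Rfc3 had no settled direction. By ratio it was called lower in the TIC fraction, at -0.55, -0.91 and -0.47 against -0.17 to 0.18 in day 10 blood (difference -0.64 ± 0.14, adjusted p = 0.00409, limma). In the Cy5 channel it was above background on the TIC arrays alone, with intensities of 965, 284 and 608 against 1.57 to 10.7 in all bloods, with Cy5 bounds of 2.2-fold higher than in day 10 blood and 2.31-fold higher than in day 0 blood, against ratio folds in the other direction. Cy5 alone with quantile normalization gave 1.24 and 1.34 against the day 10 and day 0 bloods, and median centring gave 1.13 and 1.06. The medians of all tested genes were 0.21 and 0.11 with Cy5 alone and 1.39 and 1.16 with median centring. With median centring Rfc3 thus stayed below the typical gene. As for Pola1, the reference signal of Rfc3 was above background on the 3 TIC arrays and on no blood array.

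Replication protein A coats the single strands that the helicase exposes. Rpa3, its smallest subunit, had the highest ratios of the 44 genes in the TIC fraction of mice 832 and 834 but not of mouse 833, at 3.58, 1.32 and 3.5, against 0.25, 0.54 and 0.07 in day 0 blood and -0.31, 0.06 and 0.00 in day 10 blood. It was higher by 2.51 ± 0.53 against day 0 blood (adjusted p = 0.00316, limma) and at least 5.44-fold higher than in day 10 blood (adjusted p = 0.00138). Without the TIC array of mouse 833 the difference from day 0 blood grew from 2.51 to 3.25, by 1.67 times as a fold, and the fold of the ratios against day 10 blood by as much. Rpa1, the large subunit, ran the other way between mice, at 0.68, 1.77 and 1.02, and was higher by 1.38 ± 0.24 against day 10 blood (adjusted p = 0.000963, limma). Rpa2, the middle subunit, stood at -0.10 to -0.15 in the TIC fraction and was not called with its brighter probe; a dimmer probe was called higher than in day 10 blood (adjusted p = 0.0138, limma over all kept probes).

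**Figure D3:**
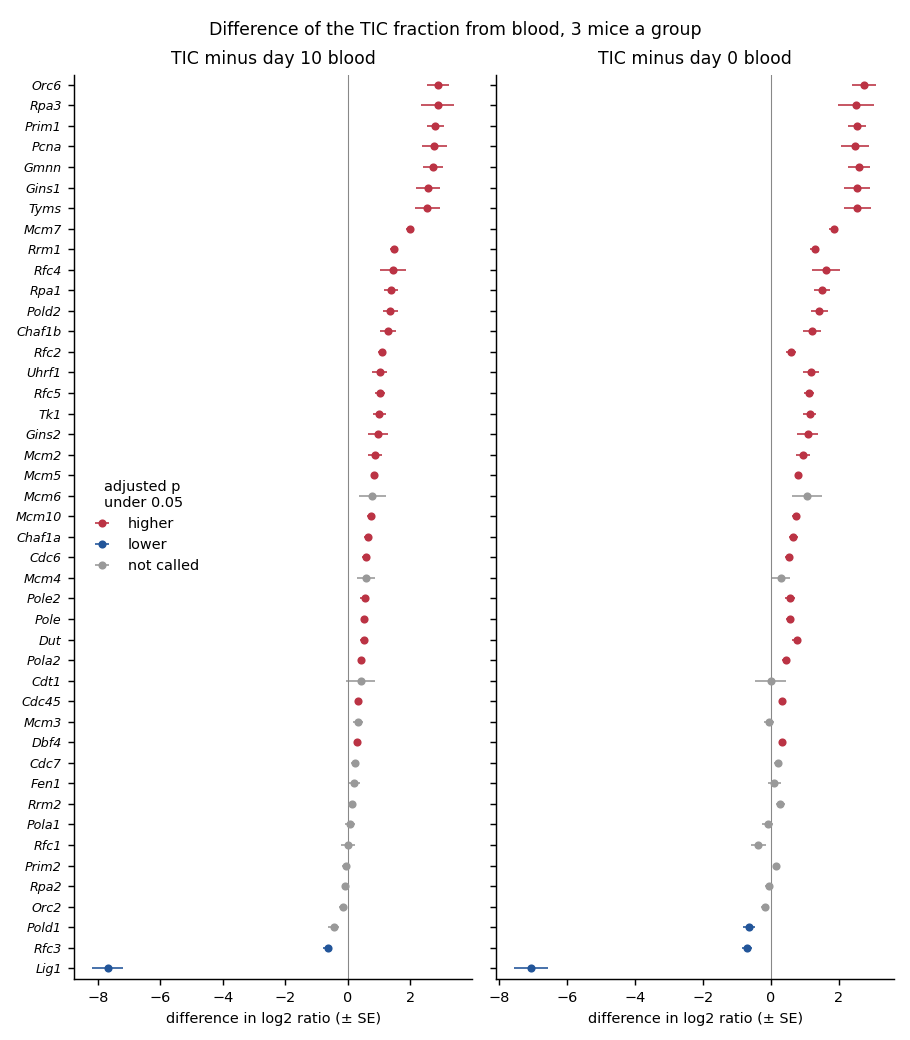
Difference in log2 ratio between the TIC fraction and day 10 blood (left) or day 0 blood (right), with its standard error (x axis), for each of the 44 genes (y axis). Red genes were called higher and blue genes lower at an adjusted p below 0.05 (limma); Orc6 is highest in both panels and Lig1 lowest, at -7.68 and -7.06. Points of genes not above background in blood are fitted values, not bounds.

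Lig1 encodes DNA ligase I, which seals the nicks between lagging-strand fragments, and it was by far the most strongly lowered gene of the list. Its probe lies at chr7:12211439-12211497 (mm8). Of the 44 genes its probe was the brightest in blood, which does not rank amounts of RNA between genes. Its Cy5 intensities were 15200, 4630 and 3460 in day 0 blood and 3180, 4480 and 2150 in day 10 blood. No other gene of the list exceeded 154 in blood. In the TIC fraction its intensities were 1490, 941 and 864. The log2 ratios were 0.54, -0.34 and 0.71 in day 0 blood, 1.0, 0.99 and 0.77 in day 10 blood and -7.62, -5.55 and -7.11 in the TIC fraction. It fell by 7.68 ± 0.49 against day 10 blood and by 7.06 ± 0.49 against day 0 blood (adjusted p = 3.82e-06 and 8.83e-06, limma).

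The size of this fall depends on the scaling. Agilent's processed signals gave -7.02 and Cy5 alone -5.53 against day 10 blood, whereas median centring without loess gave -0.98, which was not called (adjusted p = 0.106, limma); against day 0 blood median centring gave -1.90 (adjusted p = 0.00911). Without the TIC array of mouse 833 the difference was -8.29 and -7.67. All 10 measured erythroid markers were called lower in the TIC fraction in the same comparisons, with differences from day 10 blood of -0.77 to -11.47. Their summed Cy5 intensity was 32700 to 132000 in day 0 blood, 26100 to 39700 in day 10 blood and 3060 to 11100 in the TIC fraction. Alas2, the first enzyme of haem synthesis in red cell precursors, stood at 1.52, 1.48 and 2.35 in day 10 blood and -10.69, -8.41 and -9.97 in the TIC fraction, and Fech, the last enzyme of that pathway, at 1.58, 1.58 and 2.04 against -10.34, -8.17 and -9.75. The part of red cell transcripts in the Lig1 difference was not tested. Of the 3 RefSeq promoter windows of Lig1, 1 holds a match to the E2F words, beginning 26 bases after the start, and is shown beside those of the helicase genes because Lig1 fell where Mcm5 and Mcm7 rose.
Lig1, chr7:13278576-13278875, + strand: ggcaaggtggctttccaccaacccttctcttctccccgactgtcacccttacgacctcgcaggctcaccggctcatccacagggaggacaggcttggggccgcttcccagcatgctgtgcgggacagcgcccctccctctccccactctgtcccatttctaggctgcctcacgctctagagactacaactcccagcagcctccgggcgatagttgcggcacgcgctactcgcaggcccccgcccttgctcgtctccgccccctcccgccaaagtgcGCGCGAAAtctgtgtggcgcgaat

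Fen1, the nuclease that trims the flaps before LIG1 acts, was not above background on any blood array, had TIC ratios of 0.32, -0.34 and 0.47 and was not called (adjusted p = 0.4 and 0.678, limma). Without the TIC array of mouse 833 it was called higher (adjusted p = 0.00273 and 0.0105).

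Of the 5 nucleotide synthesis genes, 4 were called higher in both comparisons. Tyms encodes thymidylate synthase, which makes dTMP from dUMP. It had log2 ratios of -0.01, 0.20 and -0.01 in day 0 blood, -0.02, 0.14 and 0.02 in day 10 blood and 3.24, 1.47 and 3.08 in the TIC fraction, with the bloods close together and mouse 833 the lowest TIC value. Tyms was higher by 2.54 ± 0.40 against day 0 blood (adjusted p = 0.000654, limma) and at least 4.21-fold higher than in day 10 blood (adjusted p = 0.000567), and a second kept probe was called higher too (adjusted p = 0.00125 over all kept probes). Tk1, thymidine kinase of the salvage route, stood at 1.22, 0.54 and 1.27, higher by 1.01 ± 0.20 against day 10 blood (adjusted p = 0.00215, limma).

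The subunits of ribonucleotide reductase, the enzyme that makes deoxynucleotides from ribonucleotides, differed. Rrm1, the large subunit, had even TIC ratios of 1.36, 1.68 and 1.29 against 0.08 to 0.27 in day 0 blood, a difference of 1.28 ± 0.13 (adjusted p = 5.07e-05, limma), and was at least 2.6-fold higher than in day 10 blood (adjusted p = 1.61e-05). Rrm2, the S phase subunit, had TIC ratios of 0.04, 0.27 and 0.06 with Cy5 intensities of 189, 121 and 93.2, against 6.06 to 12.9 in blood, and was not called (adjusted p = 0.4 and 0.076, limma). Dut encodes the dUTPase that keeps uracil out of DNA. Its brighter probe had TIC ratios of -0.08 to 0.22 and was higher by 0.51 ± 0.13 against day 10 blood (adjusted p = 0.00809, limma). The dimmer Dut probe, not above background in day 10 blood, was called higher too (adjusted p = 5.04e-05 over all kept probes).

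The 3 genes of chromatin assembly and methylation upkeep were called higher in both comparisons. Chaf1a and Chaf1b encode subunits of the histone chaperone CAF-1, which places histones behind the fork. They were not above background on any blood array and were at least 1.38-fold and at least 2.34-fold higher than in day 10 blood (adjusted p = 0.00192 and 0.00252, limma). Chaf1b stood at 1.73, 0.52 and 1.34 in the TIC fraction, and Chaf1a at 0.54, 0.84 and 0.78. Uhrf1, which recognises hemimethylated DNA and recruits the maintenance methyltransferase, stood at 0.70, 1.63 and 0.66 and was at least 2.04-fold higher than in day 10 blood (adjusted p = 0.00506, limma). Dnmt1, that methyltransferase and not one of the 44 genes, fell by 0.76 ± 0.15 against day 0 blood (adjusted p = 0.00235, limma).

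The differences between the TIC arrays ran through the list. The 44 genes had a median absolute difference of 0.125 between mice 832 and 834, 0.559 between 832 and 833 and 0.456 between 833 and 834. In mouse 833 the ratio lay more than 1 below both other TIC arrays for 9 of the 44 genes (20.5%, against 8.46% of all tested genes): Rpa3, Rfc4, Pcna, Tyms, Gins1, Orc6, Gins2, Gmnn and Prim1. It lay more than 1 above both for Cdt1, Lig1 and Mcm6 (6.82%, against 5.84%). The TIC arrays of mice 833 and 834 were on the same slide and had the same median Cy5 intensity over the tested genes, 129. Beside this, Afp stood at 6.24 in mouse 833 and 5.15 and 5.07 in mice 832 and 834, and the macrophage gene C1qb at -0.46 against 0.97 and 0.68; whether cell makeup moved with the replication genes was not tested. Without the TIC array of mouse 833, 30 of the 44 genes were called higher and 3 lower against day 10 blood, and 31 and 5 against day 0 blood, where 39.8% and 37.8% of all tested genes were called higher.

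**Figure D4:**
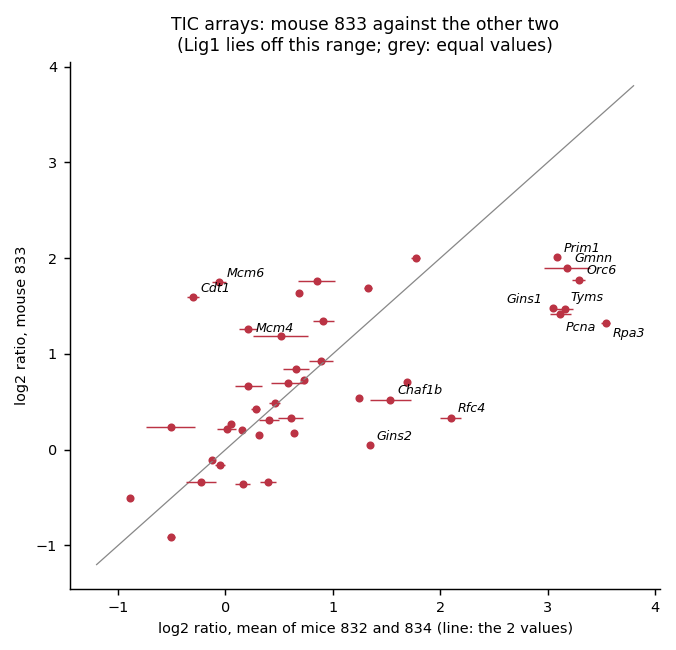
Log2 ratio in the TIC fraction of mouse 833 (y axis) against the mean of mice 832 and 834 (x axis; horizontal lines join their values) for 43 genes, Lig1 being outside the range. Genes more than 1 from the grey line of equal values are named: Rpa3, Pcna, Tyms and others with ratios near 3 in mice 832 and 834 lie below it, and Cdt1, Mcm6 and Mcm4 above it.

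Between day 10 and day 0 blood none of the 44 genes was called, and neither was any of the 14253 tested genes (0%, limma). At an unadjusted p below 0.05 there were 2 of the 44 genes, Rfc2 and Mcm3, and 2104 of all tested genes; the smallest adjusted p among the 44 was 0.171 and among all genes 0.0514. The median difference was -0.01 for the 44 genes and -0.01 for all genes, with a range of -0.51 to 0.62. Rfc2 stood at 0.01, 0.41 and 0.52 in day 0 blood and at -0.22, -0.16 and -0.20 in day 10 blood, lower in 3 of 3 mice (difference -0.51 ± 0.14, adjusted p = 0.171). Mcm3 stood at 0.31, 0.38 and 0.55 and at -0.03, 0.09 and 0.05, also lower in 3 of 3 mice (-0.38 ± 0.15, adjusted p = 0.291). These values are from the brighter probe of each gene. The dimmer kept probe gave -0.14 for Rfc2 and -0.05 for Mcm3, and that of Mcm3 was not above background on any blood array. The 3 values of each group did not overlap for 7 genes that were lower and 3 that were higher on day 10, where 17.2% and 15.7% of all tested genes showed this.

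Other settings, with the brightest kept probe of a gene, called single genes of the list lower on day 10. Agilent's processed signals called Mcm5 and Pola1, array weights called Rfc2 and Mcm3, Cy5 alone called Rfc1, and within slide 3, which holds day 0 blood of mouse 834 and the 3 day 10 bloods, Rfc2 was called at -0.72 (adjusted p = 0.025). With the mouse as a block 32 of all tested genes were called and none of the 44. Without the TIC array of mouse 833, which enters only the shared estimate of the spread, 1058 of all tested genes were called and again none of the 44. Blood of the same mice thus gave no call for the list by limma with the ratios used here, while its detection in Cy5 was lower on day 10 together with that of all genes.

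**Figure D5:**
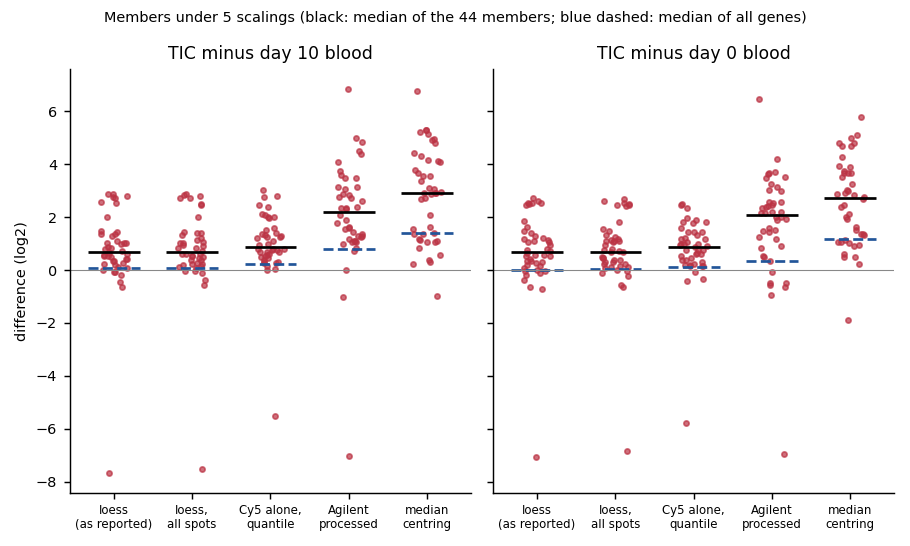
Difference of the TIC fraction from day 10 blood (left) and day 0 blood (right) on the log2 scale (y axis) for the 44 genes (points) under 5 scalings (x axis); black lines are the medians of the 44 genes and blue dashed lines those of all tested genes. The black line lies above the blue one under each, at 0.69 against 0.07 with loess and 2.92 against 1.39 with median centring for day 10 blood, and the low point is Lig1.

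The size of these differences depended on the scaling. With median centring and no loess, 40 of the 44 genes were called higher and none lower against day 10 blood. But 72.1% of all tested genes and 95.7% of all called genes were then higher. The median of all genes was 1.39 against 2.92 for the 44 genes. Agilent's processed signals gave 35 higher and 1 lower at a median of 2.20, with all genes at 0.81 and 45.4% of them called higher. Cy5 alone gave 31 higher and 1 lower at a median of 0.88, with all genes at 0.21 and 34.5% of them called higher.

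Neighbouring gene lists, put together from the same pathways and also known from earlier results of these data, were read beside the shares of all tested genes, 34.4% higher and 33.1% lower. Of 27 measured other replisome genes 14 were called higher and 7 lower against day 10 blood, with a median of 0.30; Pole3, a small subunit of polymerase epsilon, was higher by 1.62 ± 0.15 and Gins4, another GINS subunit, by 1.43 ± 0.15. Of 29 other nucleotide synthesis genes 17 were called higher and 7 lower, with a median of 0.51. Paics, of purine synthesis, was higher by 1.55 ± 0.14, while Dck, the deoxycytidine kinase, fell by 1.80 ± 0.16 and Mthfd2, of mitochondrial folate metabolism, by 3.12 ± 0.31. Of 24 regulators of S phase 10 were called higher and 7 lower, near those shares. Cdk4, not above background in day 10 blood, was higher than in day 0 blood by 2.59 ± 0.14. Rb1, which encodes the retinoblastoma protein that CDK4 phosphorylates, fell by 3.97 ± 0.22 against day 10 blood. Of 11 genes of chromatin replication 5 were called higher and 3 lower, and Nasp, a histone chaperone, was higher than in day 0 blood by 1.98 ± 0.19. Of 20 mitosis genes 15 were called higher and 1 lower, with a median of 0.81; Cdc20, the activator of anaphase, was higher by 2.59 ± 0.15 (adjusted p = 2.25e-06, limma), and Plk1, a mitotic kinase not above background in blood, was called higher too (adjusted p = 5.31e-06). None of these genes was called between day 10 and day 0 blood.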

How the data were processed

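The 9 arrays were Agilent 2-colour arrays, 1 per sample. The deposited scanner files hold spot intensity values and a log10 ratio from Agilent Feature Extraction, version 10.5.1.1 per the file headers and 9.1.3.1 per the submitters' processing notes, and the deposited value table holds the same log10 ratio. Probe positions are on mm8, per the file headers.

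From the deposited mean and background intensity, limma 3.58.1 (R 4.3.3) applied normexp with an offset of 50 and loess within each array. Of 41174 probes, 20153 were above background in Cy5 on at least 3 arrays and 19995 were kept. The brightest kept probe stood for a gene, and 14253 genes were fitted by group on all 9 arrays with Benjamini-Hochberg adjustment at 0.05. The number of arrays limits the precision. In simulated data for the comparison of the TIC fraction with day 10 blood (14253 genes), only 50 genes of each size were changed. Of changes of 0.5 on the log2 scale 8% were recovered, 68% of 1, 96% of 2 and 100% of 4. In the data 67.6% of tested genes were called, so the adjusted p was harder to pass in the simulation. These shares therefore do not give the sensitivity of the fit reported here.

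The numbers 832, 833 and 834 pair samples of the same mouse, per the labels. Deviations from group means correlated at 0.186 to 0.345 between the bloods and at -0.056 to 0.065 between blood and TIC fraction.

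The members and lists were chosen with earlier results of these data known. All 44 members could be named, with up to 4 genes of each other pathway list by smallest p and the 2 brightest genes of each marker list. Alternatives covered signals, scaling, filters, probes, slide, mouse and single arrays.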

Additional observations from a re-analysis of the deposited data

How the results depend on the processing

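Counts are genes of the 44 called higher and lower in the TIC fraction, then their median difference. Against day 10 blood, Agilent's processed signals and the deposited log ratios gave 35 and 1 (median 2.20). There 45.4% and 45.6% of tested genes were called higher. Median centring gave 40 and 0 (2.92, 72.1% higher) and Cy5 alone 31 and 1 (0.88, 34.5% higher). Probes above background on at least 6 arrays gave 12 and 1 of 19 (1.01, 5462 of 7840 genes called, 23.7% higher). Probes above background on all 9 arrays gave 3 and 1 of 8 (0.68, 2956 of 3897 genes called, 17.8% higher). The slide as a fixed block gave 14 and 1 (0.88, 4274 genes called, 1498 of them higher). The slide and mouse as blocks gave 2 and 1 (0.77, 1110 genes called, 1.5% higher). The mouse as a replicate block gave 28 and 2 (33.2% higher).

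Against day 0 blood processed signals and deposited log ratios gave 32 and 1 (2.08), where 35.5% and 35.8% of tested genes were called higher. Median centring gave 42 and 1 (2.72, 66.1% higher) and Cy5 alone 30 and 1 (0.88, 26.9% higher). The filter on at least 6 arrays gave 13 and 2 of 19 (1.06, 5388 of 7840 genes called, 20.8% higher). The filter on all 9 gave 4 and 2 of 8 (0.44, 2910 of 3897 genes called, 15.9% higher). The slide block gave 24 and 2 (21.6% higher), the slide and mouse blocks 15 and 1 (4432 genes called, 10.3% higher), and the mouse block 29 and 3 (30.4% higher). Array weights gave 31 and 6 (40.4% of tested genes higher), and slide 2 alone 11 and 1 (3489 genes called, 7.19% higher). Higher calls were 62.7% of calls with processed signals and 95.7% with median centring against day 10 blood, and 92% with median centring against day 0 blood, where loess gave 51% and 48.5%.

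Between the bloods 0 genes were called by limma with loess, and 727 with processed signals (2 members lower, median -0.45), 730 with the deposited log ratios, 592 with Cy5 alone (1 lower, -0.14), 106 and 147 with the stricter filters (-0.15 and -0.25), 8 with the dimmest probe, 32 with the mouse block, 15 with the slide as a random block, 747 with only these groups, 1284 with array weights (2 lower) and 576 within slide 3 (1 lower, -0.056). Median centring gave a median of -0.13 and the slide as a fixed block -0.056.

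Leaving out 1 array gave 26 to 30 higher and 2 to 3 lower against day 10 blood (median 0.66 to 0.78, 8326 to 10945 genes called). There 28.4% to 39.8% of all tested genes were called higher. Against day 0 blood it gave 27 to 31 and 3 to 5 (0.66 to 0.75, 8062 to 10798), where 25.4% to 37.8% were called higher. Between the bloods it gave 0 (-0.048 to 0.008, 0 to 1058). Rfc3 reversed with median centring (1.12 and 1.06) and Cy5 alone (1.24 and 1.34), Cdc45 with Cy5 alone (-0.013), Pold1 with median centring (2.11), and Cdt1 without TIC 833 (-0.22) and with array weights (-0.24); the cause was not tested. With median centring the medians of all tested genes were 1.39 and 1.16, above the values of Rfc3. Mcm7 and Rrm1 were called against day 10 blood under every setting that tested them. The filter on all 9 arrays left them out. Low signal over background in blood limits all of these.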
